A study of Mus musculus with 6 samples.

Results

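The Schlafen genes of mouse chromosome 11 were examined in bone marrow-derived macrophages (BMDM) that lack the catalytic subunit of protein phosphatase 2A. The genes are *Slfn1*, *Slfn2*, *Slfn3*, *Slfn4*, *Slfn5*, *Slfn8* and *Slfn9*, and they were taken by symbol from a table of read counts, as 7 of its 55453 genes. RNA-Seq was compared between 3 PP2A-KO and 3 WT libraries. PP2A-KO BMDM came from C57BL/6 mice with loxP sites around exon 1 of *Ppp2ca* and *cre* under the promoter of *Lyz2* (LysM), which is active in myeloid cells, so that *Ppp2ca* is deleted as the myeloid lineage forms. WT BMDM came from C57BL/6 mice of another source, and source and genotype cannot be told apart. Both groups were cultured from bone marrow with M-CSF or medium conditioned by L929 fibroblasts, and were taken as treated with the STING agonist cGAMP, which the study describes for its bulk RNA-Seq and the labels do not mention. No untreated libraries were analysed here, so the resting level and the response to cGAMP cannot be told apart. Mice of both sexes were used, and neither the labels nor the methods say whether the libraries of a group came from separate animals, so p-values measure the spread between these libraries.

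Schlafen proteins are a family of vertebrate proteins named after the German word for sleep, because *Slfn1* was found to arrest the growth of thymocytes. All share a core that in several members binds or cleaves RNA, tRNA in particular, and they are sorted into short (*Slfn1* and *Slfn2*), intermediate (*Slfn3* and *Slfn4*) and long members (*Slfn5*, *Slfn8* and *Slfn9*), the last with an added region related to helicases. Many are induced by type I interferon (IFN) through a complex that holds STAT2 and IRF9 and binds the IFN-stimulated response element of promoters. In macrophages, STING senses cyclic dinucleotides such as cGAMP and, through IRF3, starts transcription of *Ifnb1*.

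All 7 genes lay side by side in 263.8 kb of chromosome 11 (chr11:82951349-83215154, GRCm38, GENCODE M21). *Slfn5* (82951349 to 82964840, forward strand) came first, followed by *Slfn9* (82978390 to 82991830, reverse strand) and *Slfn8* (83002158 to 83020810, reverse strand). After a pseudogene, *Slfn10-ps* (83028130 to 83040042, reverse strand), the forward strand held *Slfn2* (83065112 to 83070678), *Slfn1* (83116849 to 83122670), *Slfn4* (83175186 to 83190216) and *Slfn3* (83191330 to 83215154). The coding sequences encoded 337 and 378 amino acids for the short members *Slfn1* and *Slfn2*, 640 and 602 for *Slfn3* and *Slfn4*, and 884, 910 and 910 for *Slfn5*, *Slfn8* and *Slfn9*. The family holds close relatives: the coding sequences of *Slfn8* and *Slfn9* were 92.7% identical and those of *Slfn3* and *Slfn4* 91.8%. *Slfn1* and *Slfn2* were 71.3% identical, and the identity of the other pairs of members ran from 57.6% to 75.2%.

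The stretches below were chosen to show where the family's promoters did and did not hold the core of the IFN-stimulated response element. Windows from 250 bases before to 50 bases after each RefSeq start (GRCm38.p6) were searched on both strands. The core, searched as GAAANNGAA, was in 3 of the 7 genes, against 9.76% of the 27025 genes with a window, and these were the 3 long members among them. *Slfn14*, another long member, whose transcript was at the floor, also held 1 match, 197 bases ahead of its start. Each stretch is written 5′ to 3′ on the strand of its gene, with capitals for the match. *Slfn5* held 1 match 155 bases and another 132 bases ahead of its start, and the first of these is shown. *Slfn8* and *Slfn9* each held 1 match on the other strand, 47 and 44 bases ahead of the start (135 bases for the second start of *Slfn8*).
Slfn5, chr11:82951922-82951980, forward strand: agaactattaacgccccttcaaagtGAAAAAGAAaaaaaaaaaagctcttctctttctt
Slfn8, chr11:83020824-83020882, reverse strand: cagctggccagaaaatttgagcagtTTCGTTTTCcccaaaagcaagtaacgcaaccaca
Slfn9, chr11:82991841-82991899, reverse strand: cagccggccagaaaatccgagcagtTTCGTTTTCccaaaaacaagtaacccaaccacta
The windows of *Slfn8* and *Slfn9* were 84.9% identical over 292 aligned bases, while the other pairs of members were 51.7% to 65.7% identical, so that the matches of this pair share their sequence. The stretch of *Slfn5* lies inside the span that GENCODE gives the gene, ahead of the RefSeq start. Those of *Slfn8* and *Slfn9* lie just outside the annotated genes, on their upstream side.

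None of the windows of *Slfn1*, *Slfn2*, *Slfn3* and *Slfn4* held GAAANNGAA, which says only that these letters are not in them. TTCNNNGAA, the core of the GAS element of STAT factors, was also searched as planned. It was in no window of the family or of *Slfn14*, against 9.55% of all genes. A shorter string, AANNGAAA, overlaps GAAANNGAA and was searched only after the windows had been read. It was in 7 of 7, against 26.7% of all genes, but not in the window of *Slfn14*. The order of the search means that this count cannot be weighed against that share, and any link to expression was not tested. The string is shown for *Slfn1* and *Slfn4*, the members with the largest fold changes below.
Slfn1, chr11:83116764-83116819, forward strand: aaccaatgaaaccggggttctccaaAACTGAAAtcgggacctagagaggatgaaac
Slfn4, chr11:83174936-83174993, forward strand: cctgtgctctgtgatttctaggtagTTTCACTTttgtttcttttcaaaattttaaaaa
The match in *Slfn1* began 31 bases ahead of the start and the one shown for *Slfn4*, the farthest from its start of 3 matches, 225 bases ahead, on the other strand. The others in *Slfn4* began 214 bases ahead on the same strand as that match and 152 bases ahead on the strand of the gene.

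The libraries held 35257156 to 47390899 counts. Levels are given in CPM, counts scaled to the size of each library times a scaling factor (TMM). The factors were 0.910 to 0.938 in PP2A-KO and 1.05 to 1.10 in WT, which raises levels in PP2A-KO beside those in WT. A gene with 3 counts or fewer (0.0604 to 0.0909 CPM) was taken to be at the floor, which covers counting error only. *Ppp2ca*, the deleted gene, had 47, 33 and 38 counts in the PP2A-KO libraries and 10654, 8913 and 8279 in the WT libraries, a log2 fold change of -7.67 (SE 0.10, adjusted p = 3.17e-10). All p-values here come from the quasi-likelihood test of edgeR, adjusted by Benjamini-Hochberg over the 13680 genes tested, and a gene is said to have risen or fallen where the adjusted p (FDR) was under 0.05. Reads from BMDM as a whole were counted, so more cells with a transcript and more of it per cell cannot be told apart. The 8 macrophage markers were all detected at unequal levels, from *Csf1r*, the M-CSF receptor, at 3405 ± 137 CPM in PP2A-KO and 3011 ± 179 CPM in WT, down to *Lyz2*, which encodes lysozyme M, at 8.86 ± 1.13 and 7.30 ± 0.912 CPM (SD, n = 3). The reason for the low *Lyz2* count was not tested, and the count may not measure the true level of this gene.

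All 7 Schlafen genes rose in PP2A-KO and none fell, while 18.1% of all genes tested rose and 19% fell. The log2 fold change (PP2A-KO over WT) ran from 0.37 in *Slfn3* to 2.17 in *Slfn4*, with a median of 0.82 over the family against -0.02 over all genes tested. For each of the 7 genes, the 3 PP2A-KO libraries lay above the 3 WT libraries in CPM. They did so for 24% of all genes, and lay below for 26.8%. For *Slfn3* this rested on the scaling factors, as described below. Of the family, 2 genes, *Slfn1* and *Slfn4*, also passed the stricter call of FDR under 0.01 and log2 fold change over 1, which 3.36% of all genes passed in this direction and 2.99% in the other. Summed over the family, the level was 6477, 5779 and 5679 CPM in PP2A-KO and 4284, 3177 and 2934 CPM in WT. The family took 0.554% ± 0.0306 of all counts in PP2A-KO and 0.372% ± 0.0678 in WT (SD, n = 3).

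**Figure D1:**
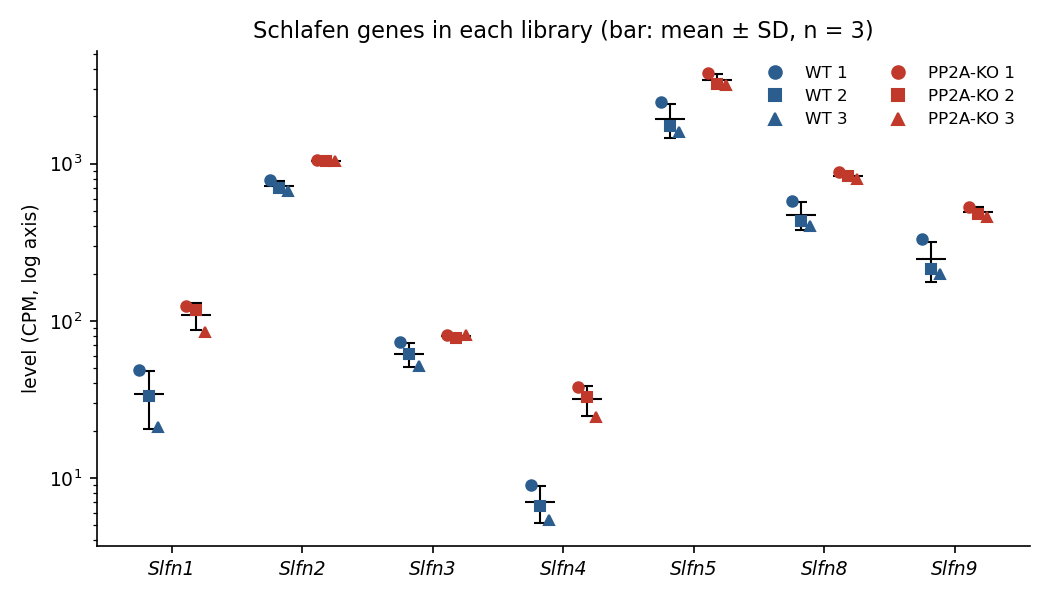
Level of each Schlafen gene in CPM on a log axis, for the 3 WT libraries (blue) and the 3 PP2A-KO libraries (red), with bars for the mean ± SD of each group. In every gene all red points lie above all blue ones, and the gap is widest in Slfn4 and narrowest in Slfn3. WT library 1 (circle) is the highest of its group, as is PP2A-KO library 1 in all genes but Slfn3.

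Among the short members, *Slfn1* rose the most. Its level was 123.6, 116.7 and 84.6 CPM in PP2A-KO and 48.45, 33.2 and 21.02 CPM in WT. The lowest PP2A-KO library was 1.75 times the highest WT library. The fold change was 3.16 (log2 1.66, SE 0.26, adjusted p = 0.00114). *Slfn1* is the founding member, known for its effect on thymocyte growth. The spread between libraries was wide in both groups, with a coefficient of variation of 19.2% in PP2A-KO and 40.2% in WT.

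*Slfn2*, the other short member, holds T cells and monocytes in a resting state and shields tRNA from cleavage under stress. Its level was 1056, 1039 and 1042 CPM in PP2A-KO and 785, 701 and 665 CPM in WT. The PP2A-KO libraries were nearly equal, with a coefficient of variation of 0.852%, and all lay above the WT libraries. The rise was smaller than that of *Slfn1*, at 1.46-fold (log2 0.54, SE 0.08, adjusted p = 6.99e-04). The count of *Slfn1* over that of *Slfn2* in the same library, which library scaling does not touch, was 0.103 ± 0.0195 in PP2A-KO and 0.0469 ± 0.0151 in WT (SD, n = 3). The libraries of the groups did not overlap in this ratio, and an exact permutation test of 3 against 3 cannot give a p under 0.1.

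Of the intermediate members, *Slfn4* had the largest fold change in the family. This gene is induced by type I IFN in myeloid cells and marks a population of suppressive myeloid cells in the inflamed stomach. Its level was 38.0, 32.9 and 24.3 CPM in PP2A-KO and 9.02, 6.60 and 5.39 CPM in WT, so that the lowest PP2A-KO library was 2.69 times the highest WT library. The counts behind these levels were 1013 to 1614 in PP2A-KO and 226 to 448 in WT. The fold change was 4.51 (log2 2.17, SE 0.20, adjusted p = 1.12e-04), which ranked 55 among all genes tested, counted from the largest rise.

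*Slfn3*, its neighbour and closest relative, has been studied in T cells and in the gut lining. Its level was 80.7, 78.1 and 81.4 CPM in PP2A-KO and 73.0, 61.3 and 51.4 CPM in WT. The groups were close, with the lowest PP2A-KO library at 1.07 times WT library 1. The counts behind these levels were 3425, 2578 and 3395 in PP2A-KO and 3627, 2665 and 2156 in WT. Divided by library totals alone, without the scaling factors, WT library 1 lay above each PP2A-KO library. The gap between the groups in *Slfn3* thus depends on these factors. The rise was the smallest in the family, at 1.29-fold (log2 0.37, SE 0.11, adjusted p = 0.0258). It missed the threshold when PP2A-KO library 1, 2 or 3 or WT library 2 was left out, with adjusted p = 0.0659, 0.0519, 0.0606 and 0.0766 from the same edgeR test. Without WT library 1 the log2 fold change was 0.51 (adjusted p = 0.00104 by edgeR), and without WT library 3 it was 0.25 (adjusted p = 0.0462 by edgeR).

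This pair rose by unequal amounts. The count of *Slfn4* over that of *Slfn3* was 0.471, 0.422 and 0.298 in the PP2A-KO libraries and 0.123, 0.108 and 0.105 in the WT libraries. The groups did not overlap, and the smallest exact permutation p with 3 against 3 is 0.1. Of the 50-base stretches in the transcripts of *Slfn3*, 15.6% occurred in another gene (7.39% in *Slfn4*), and of those of *Slfn4* 10.8% did (6.28% in *Slfn3*). At 150 bases, the length of a read, the shares were 1.29% for *Slfn3*, all with the pseudogene *Gm11427*, and 0% for *Slfn4*. How reads that fit both genes were counted is not stated, so the split between these relatives is uncertain to that extent.

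The long members rose by 1.76- to 1.98-fold. *Slfn5*, which in human cells has been described as a brake on IFN responses, had 3762, 3203 and 3189 CPM in PP2A-KO and 2456, 1729 and 1588 CPM in WT. Its fold change was 1.76 (log2 0.81, SE 0.15, adjusted p = 0.00303). An antisense gene, *Slfn5os*, overlaps it and had 42, 30 and 32 counts in PP2A-KO and 51, 21 and 8 in WT. The strand setting of the counting is not stated, but *Slfn5* had 66550 counts or more in each library, so the antisense counts were few beside it.

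*Slfn8* and *Slfn9*, mouse relatives of the human restriction factor SLFN11 and the tRNA nuclease SLFN13, followed the same pattern. *Slfn8* had 883, 833 and 796 CPM in PP2A-KO and 583, 433 and 404 CPM in WT, a 1.77-fold rise (log2 0.82, SE 0.13, adjusted p = 0.0011). *Slfn9* had 533, 476 and 461 CPM in PP2A-KO and 330.4, 213 and 199.5 CPM in WT, a 1.98-fold rise (log2 0.98, SE 0.17, adjusted p = 0.00194). In both genes WT library 1 came nearest to the PP2A-KO libraries without reaching them. *Slfn9* lay so near the log2 fold change of 1 that its call changed with the setting, and a fit that paired the libraries by number called it, at 1.02 (adjusted p = 2.38e-06 by edgeR).

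The count of *Slfn5* over that of *Slfn8* was 4.04 ± 0.211 in PP2A-KO and 4.05 ± 0.149 in WT (SD, n = 3), so that the groups overlapped. The count of *Slfn8* over that of *Slfn9* was lower in the PP2A-KO libraries, at 1.66, 1.75 and 1.73, than in the WT libraries, at 1.76, 2.03 and 2.02, though the nearest libraries of the groups barely parted. Transcripts of *Slfn8* and *Slfn9* shared 14.6% and 11.5% of their 50-base stretches with other genes, most of them with *Slfn10-ps* (10.1% and 8.1%). At 150 bases the shares were 0% and 1.46%. *Slfn10-ps* itself, a transcribed pseudogene between *Slfn8* and *Slfn2*, had 85.8, 73.6 and 79.1 CPM in PP2A-KO and 63.5, 52.5 and 49.4 CPM in WT, and rose with the family (log2 fold change 0.53, SE 0.10, adjusted p = 0.0028).

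**Figure D2:**
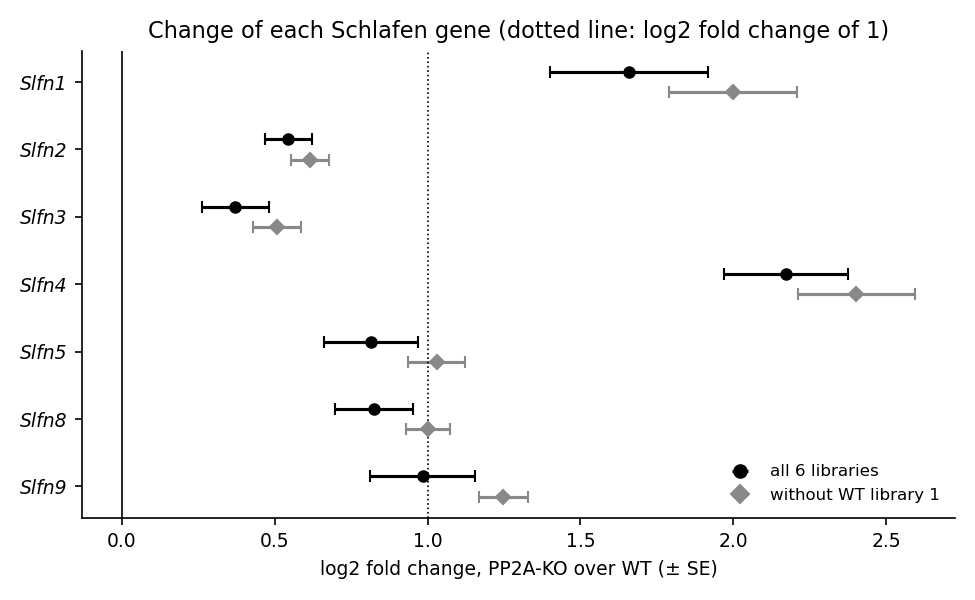
Log2 fold change of each Schlafen gene (PP2A-KO over WT, ± SE) with all 6 libraries (black circles) and without WT library 1 (grey diamonds), with a dotted line at 1. All points are to the right of 0, and without WT library 1 each moves further right, Slfn5, Slfn8 and Slfn9 to 1.03, 1.002 and 1.25.

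WT library 1 was the highest WT library for each of the 7 genes, at 1.15 (*Slfn2*) to 1.79 times (*Slfn1*) the mean of WT libraries 2 and 3. PP2A-KO library 1 was likewise the highest of its group for every member except *Slfn3*. The family sum in PP2A-KO was 6477 CPM in library 1, against 5779 and 5679 CPM. Without WT library 1, all 7 genes still rose, and 5 were called at FDR under 0.01 and log2 fold change over 1, since *Slfn5*, *Slfn8* and *Slfn9* joined *Slfn1* and *Slfn4*. Over all genes, the number called in this direction went up as well, from 460 with all libraries to 592 in that fit. *Ifnb1*, which encodes IFN-β, was also highest in WT library 1, at 8.86 CPM against 5.91 and 4.32 CPM in the other WT libraries. In PP2A-KO it had 19.2, 13.1 and 15.4 CPM, again highest in library 1. Its part in the spread of the Schlafen genes was not tested.

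Levels were compared between members per kb of exon, on the scale of CPM per kb. In PP2A-KO the order was *Slfn2* (628.5 ± 5.36), *Slfn5* (535 ± 51.7), *Slfn8* (205 ± 10.6), *Slfn9* (82.2 ± 6.39), *Slfn1* (58.1 ± 11.2), *Slfn3* (23.5 ± 0.508) and *Slfn4* (8.01 ± 1.76), each mean ± SD with n = 3. In WT the order was *Slfn2* (431 ± 36.9), *Slfn5* (304 ± 73.7), *Slfn8* (116 ± 23.5), *Slfn9* (41.5 ± 12.1), *Slfn1* (18.35 ± 7.38), *Slfn3* (18.15 ± 3.17) and *Slfn4* (1.77 ± 0.466). The order was thus the same in both groups, except that *Slfn1* and *Slfn3* did not differ beyond their spread in WT. Against the 13582 tested genes with a length, *Slfn2* ranked 57 in PP2A-KO and 67 in WT, and *Slfn5* ranked 68 and 95. *Slfn4* ranked 4516 and 8745.

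The shares of *Slfn1*, *Slfn4* and *Slfn9* in the family's counts were higher in each PP2A-KO library than in any WT library. *Slfn4* took 0.528% ± 0.0877 of the family's counts in PP2A-KO and 0.201% ± 0.0147 in WT, and *Slfn1* took 1.81% ± 0.279 and 0.964% ± 0.219 (SD, n = 3). *Slfn9* took 8.20% ± 0.0668 and 7.08% ± 0.551. *Slfn5* took 56.6% ± 1.38 and 55.3% ± 1.77, and its libraries overlapped between the groups. *Slfn3* had a smaller share in each PP2A-KO library, at 1.34% ± 0.0933 against 1.80% ± 0.118 in WT, although its own level rose. *Slfn2* had 17.6% ± 1.09 and 21.02% ± 2.36 of the counts, with overlapping libraries.

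**Figure D3:**
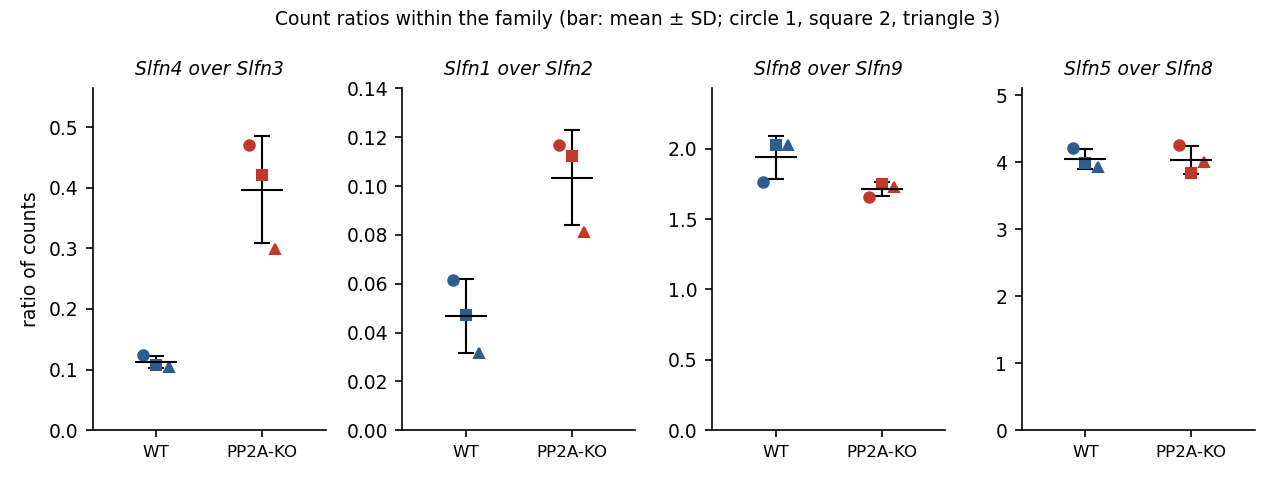
Ratio of the counts of related Schlafen genes in each WT (blue) and PP2A-KO (red) library, with bars for the mean ± SD, and each vertical axis starting at 0. Slfn4 over Slfn3 and Slfn1 over Slfn2 are higher in all PP2A-KO libraries (means 0.397 against 0.112 and 0.103 against 0.0469), while Slfn5 over Slfn8 overlaps between the groups.

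Genes of type I IFN signaling were read beside the family. Of 12 on the list, 9 rose and 0 fell, with a median log2 fold change of 0.50. *Ifnb1* rose (1.32, SE 0.23, adjusted p = 0.002), as did *Irf7* (1.53), the factor that amplifies IFN production. Of the complex that binds the IFN-stimulated response element, *Stat2* rose by 0.65 (SE 0.09) and *Irf9* by 0.28 (SE 0.06), with adjusted p = 7.62e-04 and 0.00697 by edgeR. The 3 that did not pass were *Ifnar1* (0.19), a receptor chain, *Jak1* (0.14), a receptor-associated kinase, and *Irf3* (-0.05), the factor activated by STING.

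All 26 IFN-stimulated genes on the list rose, by 0.51 to 2.55, with a median log2 fold change of 0.9997. The largest rises were in *Ifi44* (2.55, SE 0.35), *Zbp1* (1.62, SE 0.20), a sensor of nucleic acids in Z form, and *Cxcl10* (1.37, SE 0.12), a chemokine that draws T cells. Their adjusted p-values by edgeR were 5.81e-04, 4.02e-04 and 9.7e-05. On this scale *Slfn5*, *Slfn8* and *Slfn9* lay within the range of the IFN-stimulated genes below their median, *Slfn2* (0.54) lay near its lower end, *Slfn3* (0.37) lay under it, and *Slfn1* (1.66) and *Slfn4* (2.17) lay between *Zbp1* and *Ifi44*. The list and the family were both chosen with earlier results of these data known.

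**Figure D4:**
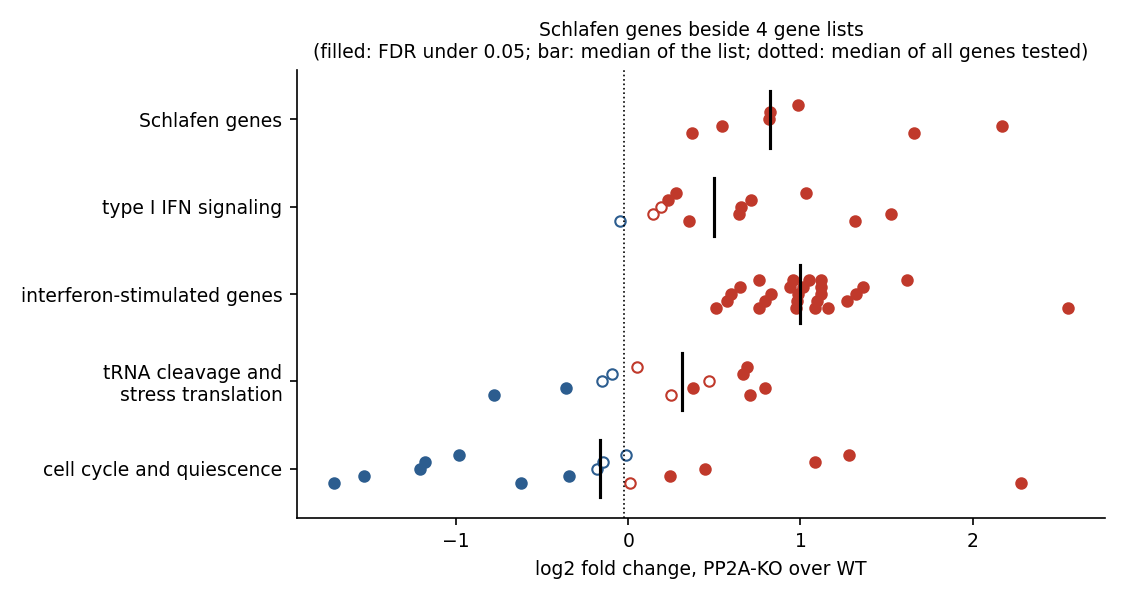
Log2 fold change (PP2A-KO over WT) of the 7 Schlafen genes and of the tested genes of 4 lists, red above 0 and blue below, filled where FDR was under 0.05, with a bar at each list's median and a dotted line at the median of all genes tested. Every Schlafen and IFN-stimulated gene is filled red, the medians being 0.82 and 0.9997, while the tRNA and stress list and the cell-cycle list have filled points on both sides of 0.

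Because *Slfn2* guards tRNA from nucleases and long Schlafen proteins cleave it, genes of tRNA cleavage and of translation under stress were also examined. Of 12, 5 rose and 2 fell, with a median log2 fold change of 0.31. *Eif2ak2* (PKR), the kinase that stops translation on double-stranded RNA, rose by 0.79 (SE 0.13, adjusted p = 0.00166), and *Ddit3* (CHOP) by 0.71 (SE 0.09, adjusted p = 4.32e-04). *Eif2ak2* is also on the list of IFN-stimulated genes. Of the other eIF2α kinases, *Eif2ak1* (HRI) did not pass (0.05, SE 0.06, adjusted p = 0.548), while *Eif2ak3* (PERK) and *Eif2ak4* (GCN2) fell, at -0.78 (SE 0.08, adjusted p = 1.35e-04) and -0.36 (SE 0.10, adjusted p = 0.0163), although 1 of these 2 calls was lost without PP2A-KO library 1 and 1 without library 2. *Ang*, which encodes angiogenin, the nuclease that cuts tRNA at the anticodon, had 1.30 ± 0.218 CPM in PP2A-KO and 0.947 ± 0.24 CPM in WT (adjusted p = 0.147). Its inhibitor *Rnh1* had a log2 fold change of -0.09 (SE 0.06, adjusted p = 0.249).

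Schlafen genes were named for growth arrest, and genes of the cell cycle were therefore read as well. Of 16, 5 rose and 7 fell, with a median log2 fold change of -0.17. Those that fell the most were the mitotic cyclins *Ccnb2* (-1.71, SE 0.17), *Ccna2* (-1.54, SE 0.11) and *Ccnb1* (-1.21, SE 0.14). D-type cyclins of early G1 rose, *Ccnd2* by 2.28 (SE 0.18) and *Ccnd1* by 1.28 (SE 0.15), and so did *Cdkn1a*, the gene of the cell-cycle inhibitor p21, by 1.09 (SE 0.11). The adjusted p-values of these 6 genes by edgeR ran from 5.4e-05 (*Ccna2*) to 2.84e-04 (*Ccnd1*).

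Other Schlafen loci were few. *Slfn14*, a long member known from platelets and red cells, and *Slfnl1*, a distant relative on chromosome 4, had at most 3 counts in any library and were at the floor. *Slfn5os* had 0.889 ± 0.113 CPM in PP2A-KO and 0.567 ± 0.424 CPM in WT (log2 fold change 0.61, SE 0.45, adjusted p = 0.324).

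The chromosome around the family was examined to see whether neighbouring genes moved too. GENCODE M21 lists 60 other genes inside the cluster or within 500 kb of its ends, of which 26 were tested, 9 rose and 2 fell. Between the Schlafen genes, *Slfn10-ps* and the processed pseudogene *Gm11425* (0.51, SE 0.11, adjusted p = 0.00649) rose, and the other 3 genes tested there did not pass. On the side of *Slfn5*, the nearest gene tested, *Nle1*, fell (-0.46, SE 0.12, adjusted p = 0.0142). On the side of *Slfn3*, *AI662270* (0.14, SE 0.07, adjusted p = 0.18) and *Gm11427* (-0.17, SE 0.12, adjusted p = 0.284) did not pass. The number that fell was 4 with libraries paired by replicate number, and 0 without PP2A-KO library 1 or WT library 2.

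Farther out on that side, 7 genes rose. They were *Mmp28* (0.87), *Taf15* (0.45), *Heatr9* (0.89) and the chemokine genes *Ccl5* (1.25), *Ccl9* (0.42), *Ccl3* (1.41) and *Ccl4* (1.01). The chemokine gene *Ccl6* (-0.15, adjusted p = 0.144) between them did not pass.

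**Figure D5:**
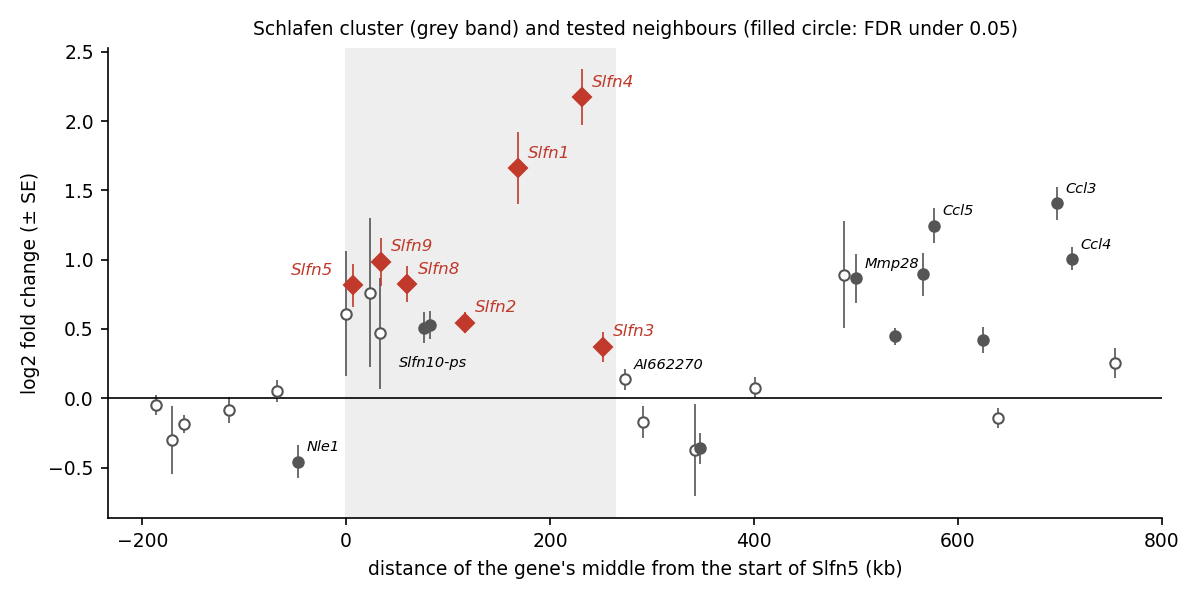
Log2 fold change (± SE) of the 7 Schlafen genes (red diamonds) and of tested neighbours (grey circles, filled where FDR was under 0.05) against the distance of each gene's middle from the start of Slfn5 in kb, with the 263.8-kb cluster shaded. The Schlafen genes are above 0, the genes just outside the cluster are near or below 0, and Ccl5, Ccl3 and Ccl4 farther out are at 1.25, 1.41 and 1.01.

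Genes outside the family whose pattern over the 6 libraries was most like that of each member were found by the root mean square distance between centred log2 CPM values, among 11445 genes with a mean above 1 CPM. Centring was over all 6 libraries, so the difference between the groups enters each distance, and genes with near fold changes lie close. The genes found are a description over 6 libraries, in which every gene shares the depth and scaling factor of its library. For *Slfn9* they included *Trim30d* and *Nt5c3* (distances 0.0495 and 0.0549 on the log2 scale). For *Slfn5* they were *Creb5*, *Dtx3l* and *Prkx*, and for *Slfn8* *Rhou*, *Tdrd7* and *Stxbp3*, with distances of 0.0118 to 0.0351. For *Slfn1* they were *Glipr2* and the IFN-induced genes *Ifit1bl1* and *Ifi208*, and for *Slfn4* *Mir155hg*, the host of miR-155, *Mmp25* and *A330040F15Rik*, with distances of 0.0709 to 0.113.

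The genes closest to *Slfn2* included *Nono* and *Fbxw11*, and the pattern of *Slfn3* was closest to that of *Ccr2*, *Taf13* and *Erap1*, at 0.022 to 0.0463. Within the family, *Slfn5* and *Slfn8* were the nearest pair (0.0531), followed by *Slfn5* and *Slfn9* (0.10). *Slfn3* and *Slfn4*, neighbours on the chromosome with the smallest and largest fold changes of the family, were the farthest apart (0.922).

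Markers of other cells were counted because Schlafen genes are also used by monocytes, neutrophils and lymphocytes. Of 8 macrophage markers, 2 rose, *Fcgr1* (0.70) and *Mertk* (0.27), and 4 in the paired fit. Of 12 neutrophil markers, *Ly6g* and *Retnlg* had 0 counts in all libraries and 3 were tested, of which *Csf3r*, which macrophages also use, rose (0.58). The neutrophil list summed to 126 to 135 CPM in PP2A-KO and 86.0 to 93.0 CPM in WT, of which *Csf3r* made up 124 to 132 and 83.0 to 90.0 CPM. Monocyte markers summed to 30.9 to 32.4 CPM in PP2A-KO and 18.5 to 24.2 CPM in WT, and 5 of 6 rose, most of them at low levels, such as *Plac8* (3.65 against 0.64 CPM) and *Ly6c2* (0.741 against 0.28 CPM). Of 8 dendritic cell markers 3 rose, with sums of 3.67 to 6.55 CPM in PP2A-KO and 1.96 to 2.92 CPM in WT. Of these sums *Dpp4* made up 1.37 to 3.23 and 0.276 to 0.503 CPM, and the rest of the list overlapped between the groups.

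T and NK cell markers summed to 0.791 to 0.879 CPM in PP2A-KO and 0.501 to 0.782 CPM in WT, with *Cd8a* at 0 counts in all libraries. B cell markers summed to 5.66 to 5.88 and 4.42 to 5.46 CPM, and the 4 markers of these lists that were tested had adjusted p = 0.311 or more by edgeR. Of 7 fibroblast markers 6 were tested and all 6 fell, by -1.15 to -2.11, and they summed to 24.9 to 37.4 CPM in PP2A-KO and 80.8 to 125 CPM in WT. The part of these cells in the rise of the Schlafen genes was not tested.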

How the data were processed

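Poly(A) RNA of BMDM was sequenced from both ends in 3 PP2A-KO and 3 WT libraries, grouped and numbered by their labels. The authors deposited 1 table of counts, whole numbers of reads per gene symbol on mm10 without normalization. The submitters' processing notes name fastp 0.20.0, kallisto 0.46.1, STAR 2.7.1a, HTSeq 0.11.2, edgeR 3.34.0 and limma 3.48.3, with no role or order. The annotation release, the strand setting and the handling of reads that fit several genes are not given in the sources used here, so reads of related Schlafen genes may have been split or dropped.

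The analysis used edgeR 4.0.16 under R 4.3.3. The filter was filterByExpr (minimum count 10, minimum total 15), scaling was by TMM (factors 0.910 to 0.938 in PP2A-KO and 1.05 to 1.10 in WT) and genotype was tested with glmQLFit and glmQLFTest on all 6 libraries, with Benjamini-Hochberg adjustment. CPM use the TMM factors. On simulated counts for this comparison over 13680 genes, with 200 genes changed 4-fold, the test found 199, with 9 false calls. Every simulated gene had the same dispersion (0.00769). Recovery of smaller changes, such as that of *Slfn3*, and false calls with more genes changed or a wider spread were not tested. Pairs of libraries of a group differed by 9.28 to 45.5 times counting noise (chi-square per degree of freedom), so none was treated as a duplicate. Lengths, coordinates and transcripts were from GENCODE M21, which holds 98.3% of the symbols, and promoter windows from RefSeq. Protein sequences were not used here.

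Across genes, deviations from the group mean correlated between libraries of the same number (0.289, 0.147 and 0.337), so the numbers, which come from the titles, were taken to pair the libraries, and nothing says what they share. The main test and the fits that left a library out did not use this pairing. The alternatives tried were DESeq2 1.42.0, limma-voom (limma 3.58.1), the number as a block, each library left out, RLE or upper-quartile factors, genes unfiltered or held to 10 counts per library, shares per length, and Pearson correlation for profiles. The shortest promoter string and the 150-base windows were added later. The members and lists were chosen with earlier results of these data known. Named were the 7 members, *Ppp2ca*, the 3 genes of each list with the largest rise and fall among those that passed, with *Ifnb1*, *Stat2*, *Irf9*, *Ang*, *Rnh1* and *Ccnd1* in any case, the cluster's nearest neighbours, the 3 most alike profiles per member, and defining markers. Some genes that this rule names are not reported here, though they count in the totals. Other neighbours and genes that did not pass were named after their values were seen.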

Additional observations from a re-analysis of the deposited data

How the results depend on the processing

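All 7 log2 fold changes stayed above 0 in every setting run. No setting scaled by library totals alone. The 7 genes passed FDR 0.05 under RLE and upper-quartile scaling, both filters, the replicate block, DESeq2 and limma-voom. Leaving out 1 library gave *Slfn3* log2 fold changes of 0.25 to 0.51, and in 4 of the 6 fits it missed the threshold, so that 6 genes passed. Those fits have fewer libraries. The number of Schlafen genes called ran from 2 to 5 when 1 library was left out (5 without WT library 1), and was 2 or 3 in the other settings, by whether *Slfn9* reached a log2 fold change of 1. The pairing by replicate number gave 3 called genes, with *Slfn4* at 2.18 and *Ppp2ca* at -7.67, and changed no other call of a Schlafen gene. Neighbours that fell numbered 4 with upper-quartile scaling, 4 with the replicate block, 1 with DESeq2 and 0 to 2 when a library was left out. Of the tRNA and stress list, 1 or 2 genes fell when a library was left out, and of the other Schlafen loci 1 or 2 rose. The causes were not tested.

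Over all genes, 2470 rose and 2604 fell, against 2095 and 3356 with upper-quartile scaling. The genes called higher numbered 460, and 592 without WT library 1. Per length, *Slfn2* took 40.9% of the family in PP2A-KO in place of 17.6%, and *Slfn5* 34.7% in place of 56.6%. The share of *Slfn2* per length was lower in each PP2A-KO library than in any WT library (at most 42.4% against at least 42.6%). That of *Slfn8* was higher in each (at least 13.2% against at most 12.9%), while its share of counts overlapped. By Pearson correlation, 1 of the 3 genes most like *Slfn3* and 0 of 3 for each other member were shared with those named. The members had 226 counts or more in each library, while *Slfn14* and *Slfnl1* lay at the floor.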
